A study of Mus musculus with 12 samples.

Results

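The RNA of whole cultures, taken before any pull-down, was compared between mouse sensory neurons infected with a virus against Larp1 and with a control virus. It covers 6 of the 12 samples of the series, the input samples of both viruses, with 3 columns of counts each. Genes were kept where the 6 input columns held at least 50 counts in sum, which left 2322 of the 15391 genes in the table, and the columns were scaled among these 6 only. The immunoprecipitated columns of the series, 6 in number, were not used.

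The cells were dorsal root ganglion neurons in culture. Both input groups carried the genotype labelled RPL22HA+/+;Advillin-Cre+, in which sensory neurons switch on a tagged form of the ribosomal protein Rpl22. Mice of both groups had a sciatic nerve injury before the neurons were plated, which puts the neurons into a growth state (labelled Preconditioned). The control group received AAV-shControl per its sample titles and the other group AAV-shLarp1, an adeno-associated virus with a short hairpin RNA against Larp1. Strain, age, sex, infection time and the number of animals or cultures are not given in the labels. Input RNA comes from the lysate as a whole, so it is not limited to cells that express Advillin-Cre, and glia, fibroblasts and macrophages of the ganglion contribute to it. In such bulk samples fewer cells of a type and less RNA per cell cannot be told apart.

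LARP1 is an RNA-binding protein that holds the cap and the first bases of mRNAs that start with a terminal oligopyrimidine (TOP) tract, a cytosine followed by a run of pyrimidines. Nearly all ribosomal protein mRNAs and many mRNAs of translation factors are of this class. When the growth kinase mTORC1 is inactive, LARP1 keeps these mRNAs out of translation, and it also protects them and their poly(A) tails from decay. Total RNA measures the amount of an mRNA and not how much of it is translated.

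The 3 control columns held 564095 to 564625 counts each and the 3 shLarp1 columns 759527 to 760140. The columns of a group differed by little more than sampling noise. The median chi-square per gene was 1.52 in control and 1.48 in shLarp1, against 1.39 for pure sampling, and the totals of a group had an SD of 266 and 345 where Poisson counting would give 751 and 872. Although each column has its own sample entry, no label ties it to a culture or animal of its own. The columns of a virus were pooled as 1 sample, so n = 1 in each group, no p-value is given for a gene, and the 95% intervals (exact, Clopper-Pearson) cover counting error only. Reads of a PCR library without molecular identifiers are not independent molecules. Column values below show the spread of counting, so groups whose columns do not overlap are not replicate support for a difference. Levels are given as scaled CPM, the count of a gene per total count after scaling with TMM factors, and differences as the log2 ratio of shLarp1 over control. The words higher and lower are kept for genes whose whole interval lay beyond 1.5-fold, a log2 ratio of 0.58.

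Larp1 itself was too sparse in input to be among the genes kept. Its counts were 5, 7 and 6 in the control columns and 3, 3 and 2 in the shLarp1 columns. Each shLarp1 column lay below each control column, and the summed counts of 18 and 8 gave a log2 ratio of -1.40 with an interval of -2.81 to -0.13, which does not lie wholly beyond 1.5-fold. Rpl22, the tagged ribosomal protein, had 480.4, 451 and 477 scaled CPM with the control virus and 387, 389.7 and 426 with shLarp1, a log2 ratio of -0.23 (-0.37 to -0.09). Avil, the gene whose promoter drives Cre, had 15 counts in control and 20 in shLarp1 (log2 0.18, -0.85 to 1.25).

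Defining markers of sensory neurons were present in both groups, all 15 of 15 with counts, although only 6 of them had the minimum count. Their summed level ranged from 1399 to 1503 scaled CPM in the control columns and from 781 to 794 in the shLarp1 columns. Uchl1 made up most of that sum. Without Uchl1 the other 14 markers summed to 449 to 487 in control and 339 to 364 in shLarp1, and Calca and Tubb3 made up most of that difference. The 12 markers left without all 3 of these genes summed to 141 to 182 in control and 142 to 166 in shLarp1, so the groups overlapped. Markers of Schwann cells and satellite glia, 10 of 10 with counts, summed to 324 to 371 in control and 324 to 381 in shLarp1, so the groups overlapped. Fibroblast markers, 8 of 8 with counts, summed to 241 to 301 and 309 to 373, and without Fn1, fibronectin, to 46.7 to 55.8 and 39.4 to 59.1. Macrophage markers, 9 of 10 with counts, summed to 103 to 113 and 70.3 to 70.7, and without Lyz2, lysozyme, to 49.2 to 64.5 and 42.2 to 49.5. Endothelial and mural markers were near the detection limit, with 29 counts in control and 20 in shLarp1 over all 8 genes, and the 2 erythrocyte or muscle markers in the table had 2 and 5 counts. The differences in the sums thus lay mainly in Uchl1, Calca and Tubb3 for sensory neurons, in Fn1 for fibroblasts and in Lyz2 for macrophages. For these types the sums of the other markers overlapped between the groups, for macrophages only from 49.2 to 49.5, though single markers did not all overlap. The sums of the sparse endothelial and mural markers did not overlap, at 13.1 to 21.7 in control and 7.03 to 11.3 in shLarp1. Prph, Pmp22 and C1qb had each shLarp1 column below each control column, and Fabp7 and S100b had each above. Uchl1, Calca, Tubb3, Fn1 and Lyz2 were left out of the sums after their values had been seen. The part of the marker differences in the gene values below was not tested.

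Of the 2322 genes, 5 (0.215%) were called higher in shLarp1 input and 50 (2.15%) lower. The lower genes included enzymes of energy metabolism, components of the ubiquitin and proteasome system, annexins and other actin-linked proteins, and a few ribosomal proteins and translation factors. Most changes were small: the median ratio over all genes was -0.04, with quartiles of -0.38 and 0.33. The interval excluded equality on the higher side for 587 genes (25.3%) and on the lower side for 545 (23.5%). The plot of ratio against count shows genes called lower among those with few counts and among those with many. The number of higher genes was unstable to single columns: it became 8, 9 and 9 without control column 1, 2 or 3, and 10 without shLarp1 column 2, while the number of lower genes stayed between 39 and 51. Of the 55 called genes 25 were called in every such omission and 30 were not called in at least 1. Scaling by total counts alone in place of TMM gave 4 higher and 134 lower genes, and it moved the median of all genes by -0.20 on the log2 scale.

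**Figure D1:**
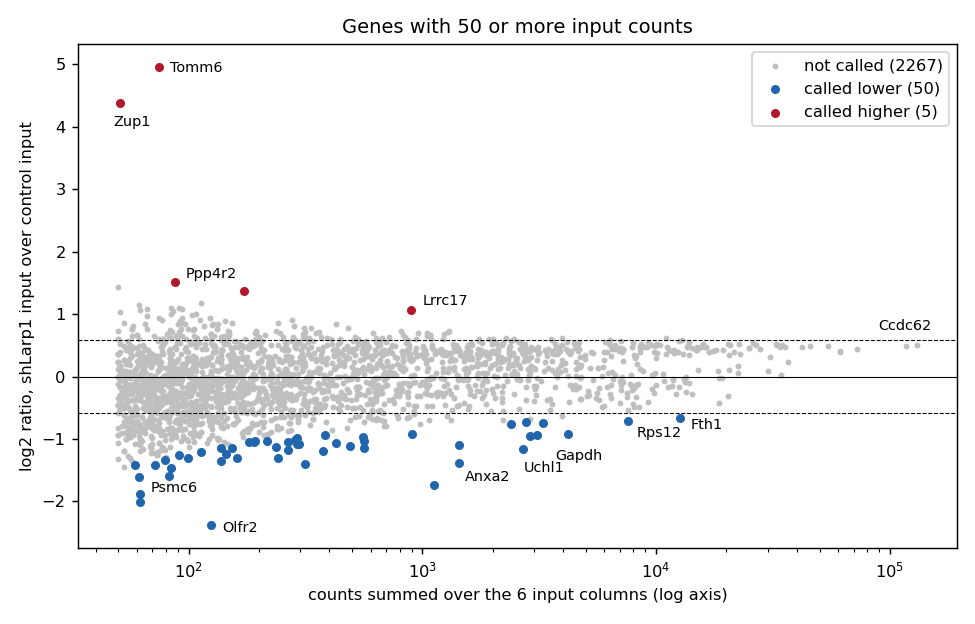
Log2 ratio of shLarp1 over control input (vertical axis) against the counts summed over the 6 input columns (horizontal log axis) for the 2322 genes kept. Each point is 1 gene, the dashed lines mark 1.5-fold, the 5 genes called higher are red and the 50 called lower are blue. Olfr2 at -2.38 is the lowest point, and 65 of the 100 genes with most counts, such as Ccdc62 at 0.51, lie between 0.3 and 0.6.

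Many of the genes with most counts had similar ratios. The 25 genes with the highest counts took 24.9% of control and 29.1% of shLarp1 input counts, and their log2 ratios ran from 0.03 to 0.54 with a median of 0.47. None of them was called, the interval lay above 0 for 24, and 21 had a ratio between 0.3 and 0.6. Ccdc62, a coiled-coil protein gene, had 27079, 26935 and 27351 scaled CPM in the control columns and 38531, 38482 and 38734 in the shLarp1 columns (log2 0.51, 0.49 to 0.52). Lztr1, an adaptor of a cullin ubiquitin ligase, had a log2 ratio of 0.48, and the transcription factor gene Zfp410 one of 0.45. Nanog, a pluripotency factor for which sensory neurons are not known, had 10781 control and 17117 shLarp1 counts and a log2 ratio of 0.44. Of the 100 genes with most counts, 68 belonged to none of the gene lists used here. These held 36.6% of control and 43.0% of shLarp1 counts, and 62 of them had a ratio between 0.3 and 0.6. The other 32, which were in a list, had a median of -0.04 and ran from -0.66 to 0.52, with 20 below 0. The group of 68 was chosen after its values were seen. Whether these counts come from the named genes was not tested, and each value below is relative to a scale on which these 68 genes had a median of 0.47.

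Among the 5 higher genes, the one with most counts and with columns that agreed was Lrrc17, a secreted leucine-rich repeat protein placed here among the fibroblast and matrix genes. It had 157, 151 and 122 scaled CPM in the control columns and 315, 256 and 327 in the shLarp1 columns. All 3 shLarp1 columns lay above all 3 control columns, and the ratio was 2.09-fold (log2 1.06, 0.85 to 1.28). Zup1, a deubiquitinase for lysine-63 chains, had 1, 1 and 0 control counts and 20, 10 and 19 shLarp1 counts, a log2 ratio of 4.38 with a wide interval of 2.45 to 7.47. The other 3 higher genes had columns of one group that differed by more than sampling. Tomm6, a small subunit of the mitochondrial import pore, had 7, 66 and 0 counts in the shLarp1 columns against 0, 2 and 0 in control, and it lost its call without shLarp1 column 2 (log2 2.17). Ppp4r2, a regulatory subunit of protein phosphatase 4, had 3, 2 and 15 control counts and 16, 23 and 28 shLarp1 counts (log2 1.51, 0.77 to 2.31), and its ratio ran from 1.07 to 2.93 as single columns were left out, with the call lost without control column 1, control column 2 or shLarp1 column 3, and with scaling by total counts. The gene model Gm4767 had 43, 0 and 0 against 83, 47 and 0 counts, and was not called without control column 2, control column 3 or shLarp1 column 1. Without genes whose columns differ, an alternative added after the data were seen, 2 genes were higher and 47 lower.

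The glycolysis list, which also holds a glucose transporter and the malate dehydrogenases Mdh1 and Mdh2, had the lowest median. Of 20 listed genes 15 had the minimum count, 0 were higher and 4 were lower, against 50 (2.15%) of all 2322 genes tested. The list median was -0.84, against -0.04 for all genes tested. Tpi1, triose-phosphate isomerase, had 100.1, 83.7 and 87.7 scaled CPM in control and 31, 32.4 and 46.7 in shLarp1, 2.47-fold lower (log2 -1.30, -1.71 to -0.91). Gapdh, which oxidises the product of that isomerase, had 1056, 1019 and 910.3 in control and 525, 504 and 514 in shLarp1, 1.94-fold lower (log2 -0.95, -1.06 to -0.84). Aldoa, the aldolase that feeds both, was 2.04-fold lower (log2 -1.03, -1.28 to -0.78), at 229, 194 and 167 against 78.8, 109.7 and 100.5. In each of these enzymes the control and shLarp1 columns did not overlap. Mdh1, the cytosolic malate dehydrogenase that shuttles reducing power, was 2.2-fold lower (log2 -1.14, -1.67 to -0.62), and it lost the call without control column 1, control column 3, shLarp1 column 1 or shLarp1 column 2, and with a minimum of 1 count.

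The enzymes of the same list that were not called mostly had values on the same side. Ldha, lactate dehydrogenase, was at -0.84 (-1.29 to -0.40) and Eno1, an enolase, at -0.82 (-1.20 to -0.44). Pgk1 at -0.12 (-0.71 to 0.48) and Gpi1 at -0.23 (-0.71 to 0.25) had intervals that included equality. Pgam1, phosphoglycerate mutase, was at 0.22 (-0.43 to 0.90) on 35 control and 48 shLarp1 counts. Slc2a3, the neuronal glucose transporter GLUT3, stood on the other side, with 259, 213 and 235 scaled CPM in control and 353, 397 and 388 in shLarp1. Its log2 ratio of 0.69 had an interval of 0.52 to 0.86, which reaches below 1.5-fold, so it was not called. Over the 14 listed members without this transporter the median was -0.86, and 13 of them had values below 0.

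Enzymes next to this pathway and carriers of energy metabolism were among the lower genes as well, though no list had been made for them. Akr1a1, an aldehyde reductase, had 115, 141 and 106 scaled CPM in control and 43.6, 49.2 and 43.9 in shLarp1 (log2 -1.41, -1.77 to -1.05). Taldo1, transaldolase of the pentose phosphate pathway, was at -0.94. Ckb, the brain creatine kinase, had 203, 205 and 202 in control and 78.8, 95.7 and 100.5 in shLarp1 (log2 -1.15, -1.41 to -0.90). The 2 ADP/ATP carriers of the inner mitochondrial membrane, Slc25a4 and Slc25a5, were lower at -0.97 and -1.17, and over all 5 genes of that carrier family with the minimum count the median was 0.23. In Akr1a1, Taldo1, Ckb, Slc25a4 and Slc25a5 the columns of the groups did not overlap. Taldo1 lost the call without control column 2, shLarp1 column 1 or shLarp1 column 3.

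Respiratory chain mRNAs did not share that direction. Of 35 nuclear complex I mRNAs with the minimum count, 0 were higher and 0 lower, with a median of 0.08 that changed sign with scaling by total counts. In 38 mRNAs of complexes II to V, 0 were higher and 2 lower, with a median of -0.03 that changed sign with a minimum of 20 counts or 1 count. The 2 lower genes were Atp5f1, a stalk subunit of ATP synthase (log2 -1.06, -1.35 to -0.77), and Sdhd, a membrane anchor of complex II (-1.42, -2.21 to -0.66). Sdhd rested on 50 control and 22 shLarp1 counts, and it lost the call without control column 1, shLarp1 column 2 or shLarp1 column 3. None of the 13 mRNAs encoded by the mitochondrial genome was called. Their median was 0.25, with mt-Nd2 highest at 0.59 (0.47 to 0.71) and mt-Nd1 lowest at -0.06 (-0.17 to 0.05). An interval above 0 was found for 7 and below 0 for 0, against 25.3% and 23.5% of all genes tested.

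The ubiquitin and proteasome list had most lower genes, 6 of 37, with 0 higher and a median of -0.35. Over all 2322 genes tested 50 (2.15%) were called lower. Uchl1, the ubiquitin hydrolase that is among the most abundant proteins of neurons, had 1016, 922 and 995 scaled CPM in the control columns and 442, 446 and 430.1 in the shLarp1 columns. The control columns were all more than the shLarp1 columns without overlap, a 2.22-fold lower level (log2 -1.15, -1.27 to -1.04). Ubb, a polyubiquitin gene, was 1.69-fold lower (log2 -0.76, -0.88 to -0.64), and lost the call without control column 1 or shLarp1 column 2. The remaining 4 encode parts of the proteasome, the complex that degrades ubiquitin-tagged proteins.

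Among these, 3 belong to the ring of ATPases at the base of the regulatory particle, which unfolds substrates. Psmc6 had 26.7, 31.2 and 19.9 scaled CPM in control and 7.04, 8.44 and 5.66 in shLarp1 (log2 -1.88, -2.82 to -1.01). Psmc1 was at -1.04 (-1.50 to -0.60) and Psmc5 at -1.03 (-1.44 to -0.62), and both calls depended on the settings. Psmc1 was not called without control column 3, shLarp1 column 1 or shLarp1 column 2, with a minimum of 20 counts or 1 count, or with DESeq2 size factors. Psmc5 was not called without control column 1, control column 3 or shLarp1 column 3, or with a minimum of 1 count. Their ring partner Psmc2 was at 0.15 (-0.13 to 0.43), and the median of all 6 ATPases was -1.02. Psma1, an alpha subunit of the core particle, was lower at -1.03 (-1.48 to -0.60). It kept its call only without control column 2 or shLarp1 column 1 among the column omissions, and lost it with a minimum of 20 counts or 1 count and with DESeq2 size factors. Over all 28 proteasome subunits with the minimum count the median was -0.34. Cops6, a subunit of the COP9 signalosome that acts on cullin ubiquitin ligases, was outside the list and lower as well (log2 -1.25, -1.78 to -0.73), but not without control column 1 or shLarp1 column 3.

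Annexins bind phospholipid membranes in the presence of calcium. Anxa2, listed among regeneration-associated genes, had 575, 543 and 518 scaled CPM in the control columns and 208, 205 and 215 in the shLarp1 columns. The gap between the groups was larger than the range within either, and the level was 2.60-fold lower (log2 -1.38, -1.54 to -1.22). Anxa5 was 2.16-fold lower (log2 -1.11, -1.39 to -0.84), and the 5 annexins with the minimum count had a median of -0.57. Rhoa, the GTPase that drives actin contraction and growth cone collapse, was 2.46-fold lower (log2 -1.30, -1.80 to -0.81), at 65, 50.8 and 64.5 against 26.7, 22.5 and 24.1. The actin-binding Tagln2 and the filament-capping Capg were lower at -1.06 and -0.98. Tagln2 lost the call without shLarp1 column 2, and Capg without control column 1, control column 3, shLarp1 column 1 or shLarp1 column 2, and with a minimum of 1 count.

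The other 23 of 24 regeneration-associated genes were not called, and the median of the list was -0.26. Gap43, the growth cone protein that rises in injured neurons, was at -0.51 (-0.90 to -0.12), Sprr1a, a small proline-rich protein induced by axotomy, at -0.16, and Jun, a transcription factor of the injury response, at -0.23. Stat3, a transcription factor of the same response, had 43.4, 72.2 and 48 scaled CPM in control and 85.9, 76 and 92 in shLarp1 (log2 0.63, 0.27 to 1.00) without passing the rule. Of 32 mRNAs of the axonal cytoskeleton 0 were higher and 0 lower. Their median was -0.35, and for 21 the interval lay below 0 and for 0 above it. Over all genes tested 23.5% had an interval below 0 and 25.3% above it. The 9 tubulins had a median of -0.73. Tubb3, the neuronal beta-tubulin, was at -0.85 (-1.15 to -0.56), just short of the call, while the 3 neurofilament and peripherin mRNAs had a median of -0.03.

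**Figure D2:**
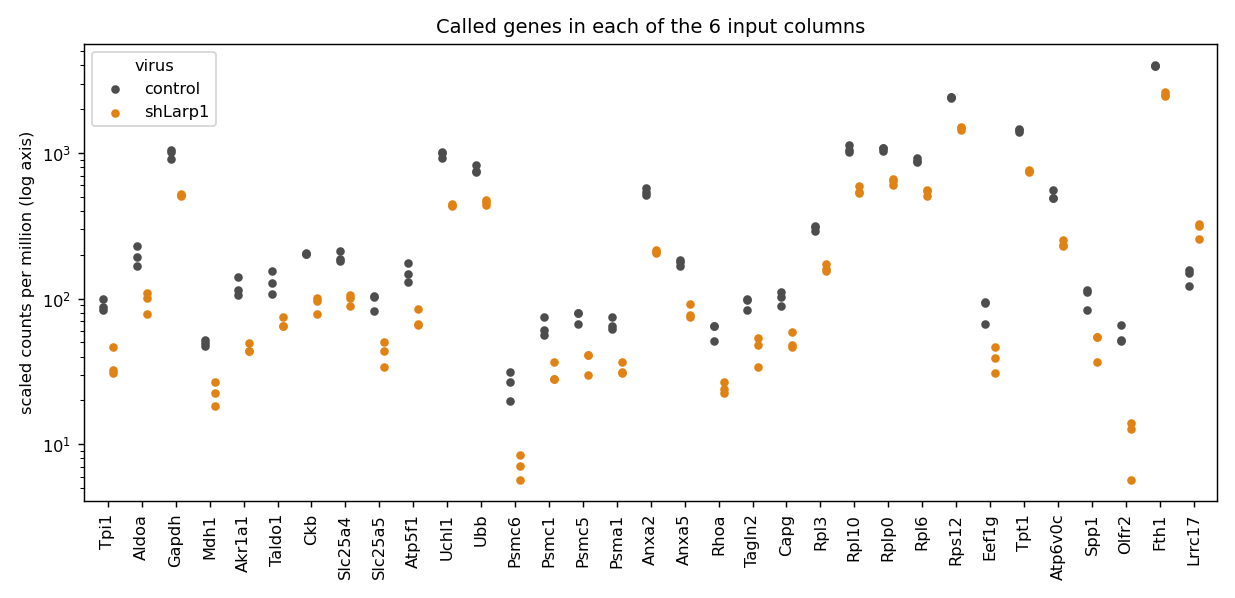
Scaled CPM on a log axis in each of the 3 control (grey) and 3 shLarp1 (orange) input columns for 33 called genes, grouped by role from glycolysis on the left to Lrrc17 on the right. Each point is 1 column, and columns of a group were counted as 1 sample. In the 32 lower genes the grey points lie above the orange ones.

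Ribosomal protein mRNAs are the main TOP mRNAs. All 82 that were listed had the minimum count, 49 of the large and 33 of the small subunit. None was higher, 4 of the large and 1 of the small subunit were lower, and 71 of the 82 had values below 0. Of all 2322 genes tested 50 (2.15%) were called lower and 1244 had values below 0. The median was -0.23 for all 82, -0.23 for the large and -0.26 for the small subunit, against -0.04 for all genes tested. The 469 tested genes in any list, these 82 included, had a median of -0.22, with 344 below 0. The 1853 tested genes in no list had a median of 0.02. The median of ribosomal protein mRNAs was thus close to that of all listed genes, a set that includes them. These comparisons were not matched for counts. Over all genes tested the median was -0.23 in the set with fewest counts and 0.17 in the set with most. Whether ribosomal protein mRNAs differ from genes of like counts was not tested. Summed counts were 186586 in control and 198961 in shLarp1 for the large subunit, and 135638 and 143709 for the small subunit. The medians of the large and of the small subunit kept their sign in each alternative scaling, count minimum and column omission that was run.

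Rpl10, a late-joining protein of the large subunit next to the tRNA sites, had 1049, 1127 and 1009.6 scaled CPM in control and 591, 535 and 539 in shLarp1, 1.91-fold lower (log2 -0.94, -1.04 to -0.83). Rpl3, which shapes the peptidyl transferase centre, was 1.89-fold lower (log2 -0.92, -1.11 to -0.72). Rplp0, the base of the ribosomal stalk, was at -0.74 (-0.84 to -0.64) and Rpl6 at -0.73 (-0.84 to -0.62). Rps12, a small-subunit protein of the beak region, had 2390.2, 2439 and 2426 in control and 1519, 1486 and 1447 in shLarp1 (log2 -0.70, -0.77 to -0.64). Each of these 5 had control columns wholly above the shLarp1 columns. Rplp0 lost the call without shLarp1 column 1, and Rpl6 lost it without control column 1 or shLarp1 column 3, and with a minimum of 1 count. At the other end Rpl41, the shortest ribosomal protein, had 8595, 8342 and 8523 in control and 9877, 9923 and 10023 in shLarp1, a log2 ratio of 0.23 (0.20 to 0.26), and Rpl35 was at 0.17 (0.13 to 0.21). The plot of ribosomal protein mRNAs shows a continuous order between these ends, in which each mRNA's interval overlaps that of its neighbour.

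**Figure D3:**
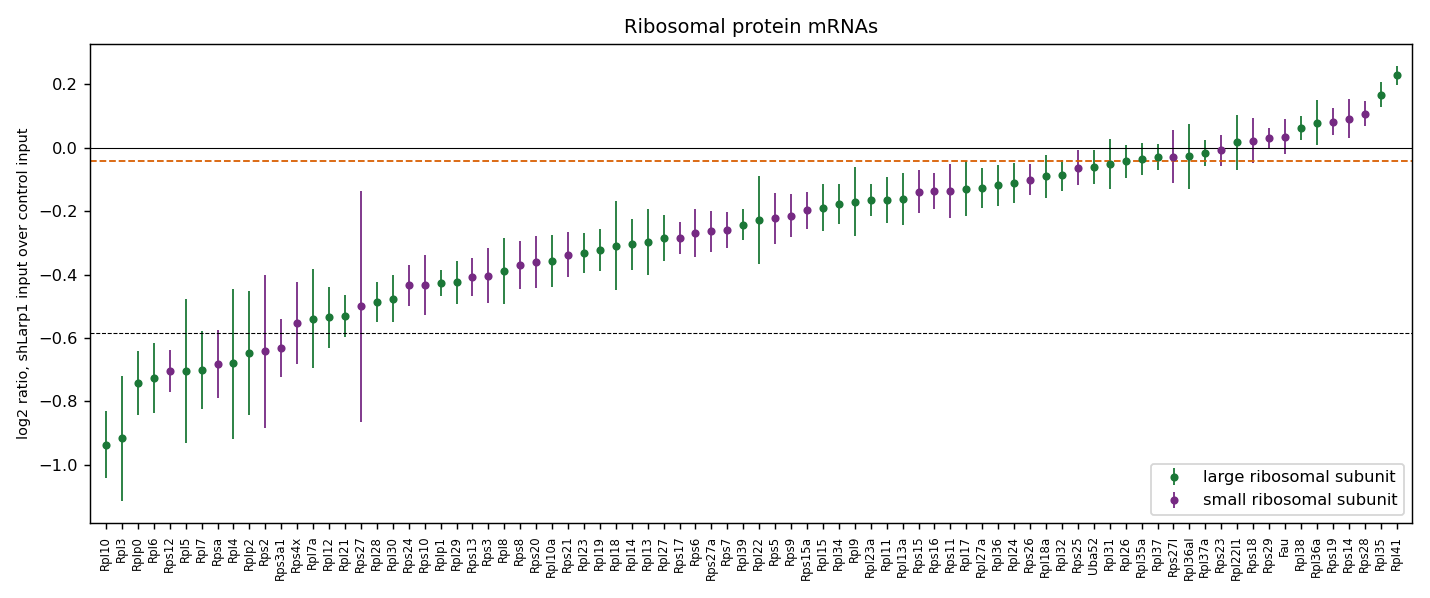
Log2 ratio of shLarp1 over control input for the 82 ribosomal protein mRNAs, ordered by value, with exact 95% intervals for counting error as bars. Green marks the large and purple the small subunit, the orange dashed line is the median of all genes tested (-0.04) and the black dashed line is 1.5-fold lower. The values run without a break from Rpl10 at -0.94 to Rpl41 at 0.23.

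The following stretches around annotated starts are shown because they hold the pyrimidine run of lower and of not-called ribosomal protein genes. They are RefSeq sequences of GRCm38.p6, 5′ to 3′ on the gene's strand, and capitals mark the longest run of a C followed only by C or T within 50 bases of the annotated start. The first 3 belong to genes called lower, and Rpl38 had a log2 ratio of 0.06 (0.02 to 0.10). With the annotated start as base 1, the runs begin at base 42 in Rpl10, 34 in Rpl6, 9 in Rps12 and 1 in Rpl38. The Rpl10 run reaches the 50-base limit. Rplp0, also called lower, has a longest run of 5 bases, from base 14.
Rpl10 (chrX:74270849-74270865, plus strand): gggagcgtCTCTTTTCC
Rpl6 (chr5:121204526-121204550, plus strand): ccttagttCTCTTTCCCgtcttgca
Rps12 (chr10:23787183-23787209, minus strand): accgccggCCTTTTCCCCTgccgccgc
Rpl38 (chr11:114668572-114668595, plus strand): gcctcgttCTTTCCCCgttctctt
A run of at least 8 such bases was found in 52 of the 61 ribosomal protein genes with a sequence window (85.2%), in 627 of the 1849 genes tested that had one (33.9%) and in 8645 of all 27025 windowed genes (32.0%). Only the gene's own strand was read. A C followed by 4 pyrimidines stood at the annotated start itself in 14 of these 61 genes (23.0%) and 67 of the 1849 (3.6%). Within 5 bases of that start it was found in 30 (49.2%) and 429 (23.2%). The 52 ribosomal protein mRNAs with a run had a median ratio of -0.19, and those without one had -0.41. In 20 other TOP mRNAs with a window the order was reversed, at -0.50 with a run and -0.36 without. Over all genes tested the medians were -0.10 with a run and -0.02 without. A run in these letters is a description and does not show where transcripts of these neurons start.

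Other mRNAs known to start with a TOP tract had a median of -0.40 over 25 with the minimum count, with 0 higher and 2 lower. The share called lower over all genes tested was 2.15%. Tpt1, the translationally controlled tumour protein, had 1461, 1437 and 1387 scaled CPM in control and 767, 737 and 757 in shLarp1, 1.89-fold lower (log2 -0.92, -1.01 to -0.83). Eef1g, a subunit of the elongation factor complex that recharges eEF1A, was 2.18-fold lower (log2 -1.12, -1.53 to -0.73), and lost the call without shLarp1 column 2. Eef1a1, which brings aminoacyl-tRNA to the ribosome, was at -0.48 (-0.67 to -0.29). Pabpc1, which coats poly(A) tails in the cytoplasm, was at -0.13 (-0.69 to 0.44) on 53 and 57 counts. Ybx1, a Y-box RNA-binding protein, had the highest value of the list at 0.53 (-0.11 to 1.20). In the list of LARP family members and cap-binding partners 7 genes had the minimum count, and 0 were called. They were Igf2bp2, Eif4ebp1, Pabpc1, Eif4e2, Eif4a1, Eif4g2 and Paip2, so no LARP gene was among them. The median of 0.01 changed sign in several alternatives, and each of the 7 intervals included equality.

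Neuronal genes beyond Uchl1 gave few calls. Of 10 pan-neuronal markers with the minimum count Uchl1 alone was called, and the median was -0.26. Scg2, a secretogranin of dense-core vesicles, was at -1.31 (-2.21 to -0.46) on 38 and 18 counts without a call. Among 6 subtype markers 1 was lower, Spp1, osteopontin, which marks large sensory neurons and is also made by macrophages (log2 -1.08, -1.44 to -0.72). It had 83.4, 115 and 111 scaled CPM in control and 54.9, 54.9 and 36.8 in shLarp1, and lost the call without shLarp1 column 3. Calca, the precursor of the pain peptide CGRP, was at -0.54 (-0.78 to -0.29). The 12 sensory neuron markers other than Uchl1, Calca and Tubb3 overlapped between the groups in sum, as given above.

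The vacuolar proton pump and the vesicle cycle each held a lower gene. Atp6v0c, the proteolipid ring of the proton pump that acidifies vesicles and lysosomes, had 492, 494 and 556 scaled CPM in control and 231, 253 and 233 in shLarp1, 2.15-fold lower (log2 -1.10, -1.26 to -0.95). It was the 1 lower gene among 11 subunits of this pump with the minimum count, whose median was -0.26. Napa, which helps to take SNARE complexes apart after fusion, was the 1 lower gene of 13 synaptic vesicle and endocytosis mRNAs. Its ratio of -1.25 ran from -1.98 to -0.81 as single columns were left out, and 4 of the 6 omissions ended the call (control column 1, control column 3, shLarp1 column 1 and shLarp1 column 2), as did a minimum of 20 counts or 1 count. Clta, a clathrin light chain in the same list, had 6.67, 9.84 and 3.31 in control and 19.7, 15.5 and 18.4 in shLarp1, a log2 ratio of 1.43 whose interval of 0.47 to 2.50 did not pass the rule.

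Olfr2, an odorant receptor gene on chromosome 7, had the lowest ratio of all genes. It had 31, 40 and 31 counts in the control columns and 9, 10 and 4 in the shLarp1 columns, 5.2-fold lower (log2 -2.38, -3.10 to -1.72), and it remained called in every column omission. Fth1, the heavy chain of the iron store ferritin, was the lower gene with most counts, 7242 in control and 5382 in shLarp1. Its ratio of -0.66 (-0.71 to -0.61) was just past 1.5-fold, and it lost the call without shLarp1 column 2 or shLarp1 column 3, and with a minimum of 20 counts or 1 count. The light chain Ftl1 was at -0.48 (-0.55 to -0.42), and the 21 antioxidant and iron storage genes had a median of -0.36. Fdps, which makes farnesyl pyrophosphate, was the 1 lower gene of 8 cholesterol synthesis mRNAs (log2 -1.08, -1.44 to -0.73), a list whose median of -0.32 became 0.34 with a minimum of 100 counts. In this list the interval lay above 0 for 3 mRNAs and below 0 for 4. Msmo1, the member with most counts, was at 0.39 (0.33 to 0.45).

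Of the 50 lower genes 24 belonged to none of the lists. Hprt, the purine salvage enzyme often taken as a reference gene, had 46.7, 60.7 and 48 scaled CPM in control and 22.5, 15.5 and 22.6 in shLarp1 (log2 -1.36, -1.91 to -0.82). Mpdu1 (-1.59, -2.35 to -0.87) and Alg5 (-1.60, -2.50 to -0.77), both of the dolichol pathway that supplies sugars for N-glycosylation, were lower, and so was Ergic3, a protein of the compartment between endoplasmic reticulum and Golgi (-1.21, -1.81 to -0.63). Rnh1, the ribonuclease inhibitor, was at -1.34, Hmgb1, a chromatin protein, at -1.01, and Sat1, the enzyme that starts polyamine breakdown, at -1.15. Single omissions ended the calls of Alg5 (control column 2 or shLarp1 column 1), Ergic3 (control column 1, shLarp1 column 2 or 3), Hmgb1 (control column 1, shLarp1 column 1 or 2), Rnh1 (control column 2 or 3, shLarp1 column 1 or 3) and Sat1 (control column 2 or 3, shLarp1 column 2 or 3). A minimum of 1 count also ended those of Ergic3 and Rnh1. Of the 3 lower gene models without a standard name, Gm3839, a pseudogene, had 833 counts in control and 67, 87 and 139 in the shLarp1 columns, which differed by more than sampling. In Gm20390 the control columns held 0, 182 and 66 counts and the shLarp1 columns 0, 128 and 0, so each group had columns at 0, and its ratio of -1.18 became 0.13 without control column 2. It was not called without shLarp1 column 1 or shLarp1 column 3 either. Apart from Hprt and Mpdu1, the genes of this paragraph were chosen after their values were seen.

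Stress and non-neuronal lists held few called genes. Heat shock and chaperonin mRNAs (15 with the minimum count) had 0 called and a median of -0.14 that changed sign without control column 3 or shLarp1 column 2. Of their values 6 lay above 0 and 9 below. The interval lay above 0 for 2, St13 at 0.52 (0.49 to 0.55) and Hspa8 at 0.25 (0.13 to 0.37), and below 0 for 0. The 16 mRNAs of endoplasmic reticulum folding and stress had 0 called and a median of -0.12, and Atf4, the transcription factor of the integrated stress response, was at -0.61 (-1.17 to -0.06). The 18 lysosome and autophagy mRNAs had 0 called and a median of -0.32, the 11 cell division mRNAs 0 called and -0.36, and the 7 immediate early and interferon mRNAs 0 called and -0.24.

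Among 10 glial mRNAs 0 were called. Their median was 0.09, with a sign that changed under scaling by total counts, and ranged from Pmp22, a myelin protein, at -0.91 (-1.38 to -0.45) to S100b, a calcium-binding protein of Schwann cells, at 0.47 (0.01 to 0.93). Among 18 fibroblast and matrix mRNAs Lrrc17 was the 1 called gene and the median was -0.21. Fn1, fibronectin, was at 0.39 (0.20 to 0.57) on 399 and 613 counts. All 5 macrophage mRNAs with the minimum count had values below 0, with Lyz2, lysozyme, at -1.07 (-1.59 to -0.57), and 0 were called. The 3 long non-coding and imprinted RNAs had 0 called and a median of 0.35. No endothelial, erythrocyte or muscle marker and neither mitochondrial rRNA had the minimum count.

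**Figure D4:**
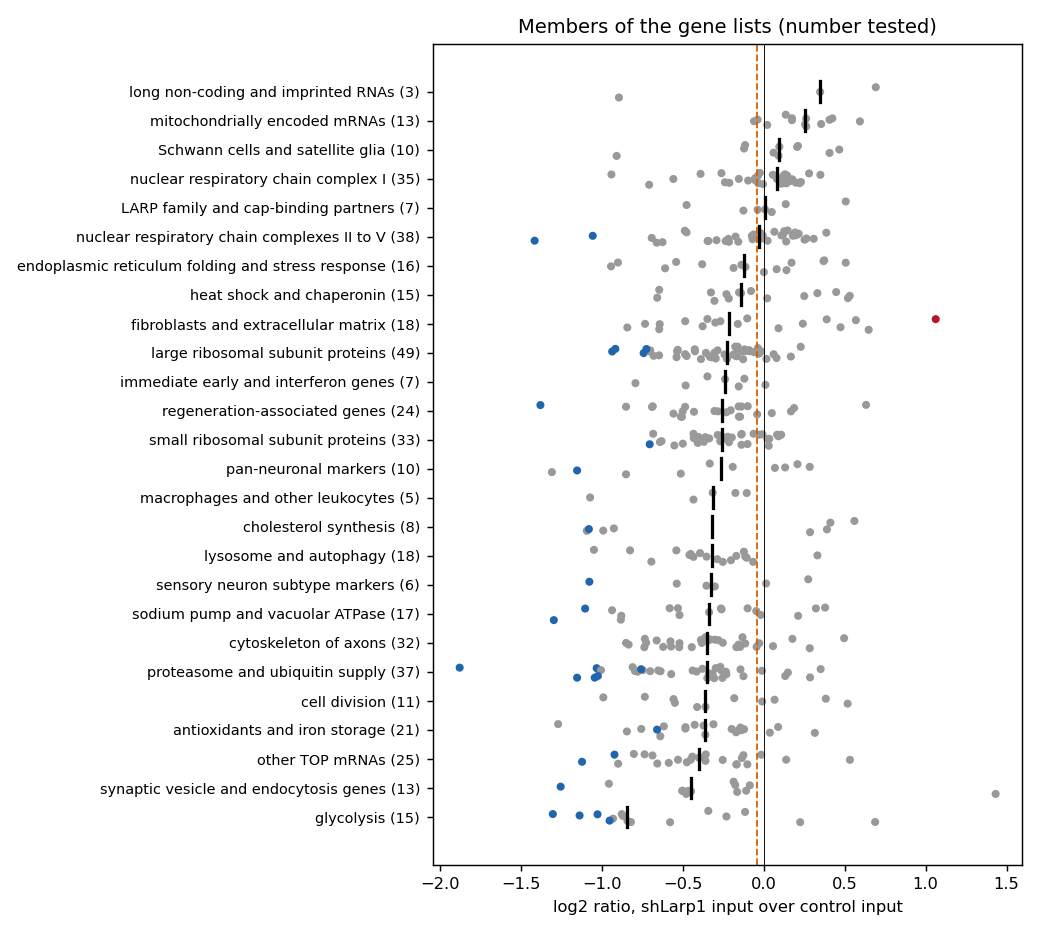
Log2 ratio of shLarp1 over control input for the members of each gene list with at least 50 counts, 1 point per gene, with the number tested in parentheses. Black bars mark each list's median, the orange dashed line the median of all genes tested (-0.04), blue points genes called lower and red points genes called higher. Glycolysis has the lowest median at -0.84.

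The ratio also differed with the size of a gene and its counts. The length of the gene in the genome, introns included, was known for 97.2% of the tested genes, which were split into 3 sets of 752. The median was -0.17 in the shortest set, -0.10 in the middle and 0.27 in the longest, with 26, 13 and 7 lower genes. By counts, in 3 sets of 774, the medians were -0.23, -0.07 and 0.17 from the lowest to the highest. The part of length and of count in the values above was not tested.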

How the data were processed

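Whole-number estimated counts per gene, not scaled to depth, were deposited by the authors. Per the submitters' processing notes, minimap2, Salmon, GRCm39 and mm39 were used, and per the labels' protocols the libraries came from a nanopore cDNA-PCR barcoding kit. Tool versions, annotation, filters and strand: not given in the sources used here. Reads of overlapping or near-identical genes may be split or merged. The extraction text speaks of fresh ganglia, the sample source of cultured neurons. Per-sample columns not used numbered 6.

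Counts were summed per virus. TMM factors (edgeR 4.0.16, R 4.3.3) were fitted on the 6 input columns over genes with at least 50 counts. Intervals are exact (scipy 1.17.1). For comparison, edgeR's quasi-likelihood test and DESeq2 1.42.0 were also run, which take columns as replicates. Symbols came from a gene name table (13711 of 15391 identifiers matched), sequences and gene lengths from RefSeq GRCm38.p6.

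Named genes are Larp1, Rpl22 and Avil, the 15 called genes per direction whose interval's nearer bound lay farthest from 0 (gene models left out), and in each list up to 4 called members or, with fewer than 2 called, the members with most counts up to 2. Not all list members named by this rule are described above. Among those left out, Mag at 0.41, Ctsl at 0.33 and Snhg11 at 0.35 had intervals above 0. B2m at -0.35, Ctsd at -0.43 and H2afz at -0.41 had intervals below 0. Other genes named, such as Slc2a3, Stat3, Clta and Rpl41, were chosen after their values were seen. Members and lists were chosen with earlier results of these data known. The result for 1 gene is not reported here.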

Additional observations from a re-analysis of the deposited data

How the results depend on the processing

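Of the 55 called genes 1 changed direction, Gm20390, with 0.13 without control column 2; the 35 named by the rule kept theirs. Tomm6 without control column 2 gave no value, since 0 control counts were left. Higher genes numbered 5 and lower genes 50 in the values reported. Minimums of 20, 100 and 1 counts gave 13, 2 and 21 higher genes, and a minimum of 1 gave 79 lower genes. Scaling by total counts gave 134 lower genes. Requiring the interval to lie beyond 2-fold left 2 higher and 7 lower, and requiring it to exclude equality gave 587 and 545. Without genes whose columns differ, 2 were higher. Leaving out each column gave 4 to 10 higher and 39 to 51 lower genes.

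Taking the columns as replicates, edgeR's quasi-likelihood test without a block gave 480 higher and 398 lower genes at a Benjamini-Hochberg adjusted p of 0.05, and DESeq2 gave 367 and 200. With a replicate block the quasi-likelihood test gave 485 and 391. Replicate numbers were not taken to pair the samples in the values reported. The deviations of same-numbered columns correlated across genes at 0.11, 0.18 and 0.07. Of these, 0.11 and 0.18 lay above the threshold of 0.1 set for pairing, so the correlations do not show that same-numbered columns are unrelated. These tests compare libraries and not conditions.

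Of the 55 called genes, 25 kept their call in all column omissions, 49 with a minimum of 20 counts and 43 with a minimum of 1 count. Of the 35 named by the rule, 22 kept it in all column omissions. With 564095 counts in the shallowest column, genes such as Larp1 with 18 and 8 counts were not resolved at 1.5-fold.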
